A study of Caenorhabditis elegans with 24 samples.

Results

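The interaction of the unc-1(vlt10) and nhr-1(vlt16) alleles was measured in the mRNA of Caenorhabditis elegans from 24 sequencing libraries, 6 of each of 4 genotypes. It is the effect of the unc-1 allele in animals that carry the nhr-1 allele minus its effect in animals that do not. All 24 libraries of the series enter it. It was computed for the 15131 genes, of 46778 in the count table, that had at least 10 reads in at least 6 libraries. The animals were pooled young adults grown at 20 °C. Every genotype, the control included, carried the integrated transgene rmIs133, which expresses a stretch of 40 glutamines fused to YFP from the unc-54 promoter in body-wall muscle. The control strain is called 40Q. The unc-1(vlt10) mutants carry a premature stop from a chemical mutagenesis screen, the nhr-1(vlt16) mutants a nonsense mutation made by genome editing, and the double mutants both alleles. Each genotype is a single strain, the transgene and both genes lie on chromosome X, and developmental stage was not scored in the cultures sequenced. Culture, strain and allele therefore cannot be told apart within a genotype. The labels call the libraries of a genotype biological replicates.

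UNC-1 is a stomatin, a membrane protein of neurons and muscle that controls gap junctions built from innexins and is needed for coordinated movement. NHR-1 is a nuclear hormone receptor, a class of transcription factor that can respond to lipophilic molecules, and it is known from genetics in C. elegans as a partner of the sulfotransferase SSU-1. When the product of one gene acts only through the other, a double mutant resembles one of the single mutants, and geneticists call this epistasis. When each allele acts alone, the effects multiply, which is an addition on a log scale.

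Expression is given as CPM, the reads of a gene relative to the TMM-scaled library total. TMM scales libraries by the bulk of their genes. The interaction is a log2 value. At 0 the double mutants sit where the effects of both alleles, measured singly against 40Q, add up. A positive value means that double mutants lie above that additive expectation and a negative value that they lie below it. The test was edgeR's quasi-likelihood F-test. A gene was called when its p, adjusted by Benjamini-Hochberg, was below 0.05 and its interaction larger than 2-fold. Library totals were between 19098458 and 30467364 reads. Depth was greatest in the double mutants, with a median 1.26 times as large as in 40Q. Levels of unc-1 and nhr-1 mRNA followed the labels, and neither departed from additive effects by this test. For unc-1, the levels were 6.55 to 9.51 CPM in 40Q (median 8.17), 0.652 to 1.45 in unc-1(vlt10) (median 1.13), 5.48 to 7.45 in nhr-1(vlt16) (median 6.29) and 0.812 to 1.02 in double mutants (median 0.898), with an interaction of 0.07 (standard error 0.212, adjusted p = 0.816, edgeR with Benjamini-Hochberg adjustment). The sign of this value turned when 1 library was left out or the libraries were thinned, as given in the closing section. For nhr-1, they were 25.4 to 29.9 CPM in 40Q (median 28.99), 22.7 to 30.3 in unc-1(vlt10) (median 25.4), 11.4 to 16.4 in nhr-1(vlt16) (median 15.1) and 12.4 to 16.8 in double mutants (median 14.2), with an interaction of 0.08 (standard error 0.115, adjusted p = 0.616 by the same test).

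Departure from additive effects was called for 1359 genes, 8.98% of those tested. In 842 of them (5.56% of all genes) double mutants lay above the additive expectation and in 517 (3.42%) below it. An adjusted p below 0.05 without the fold threshold (edgeR, Benjamini-Hochberg) was reached by 7114 genes (47.0%), so most departures were smaller than 2-fold. Beyond 4-fold there were 117 positive and 54 negative genes, and beyond 8-fold 30 and 7. Over all genes tested the median interaction was 0.001. The called positive genes were typically lowered by each allele alone, with median log2 differences from 40Q of -1.02 in unc-1(vlt10) and -0.38 in nhr-1(vlt16), while the double mutants were at -0.04 where the sum was -1.42. The called negative genes were the mirror image, at 1.10 and 0.60 in the single mutants and 0.30 in double mutants, where the sum was 1.66. These medians describe genes that were chosen by this contrast.

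**Figure D1:**
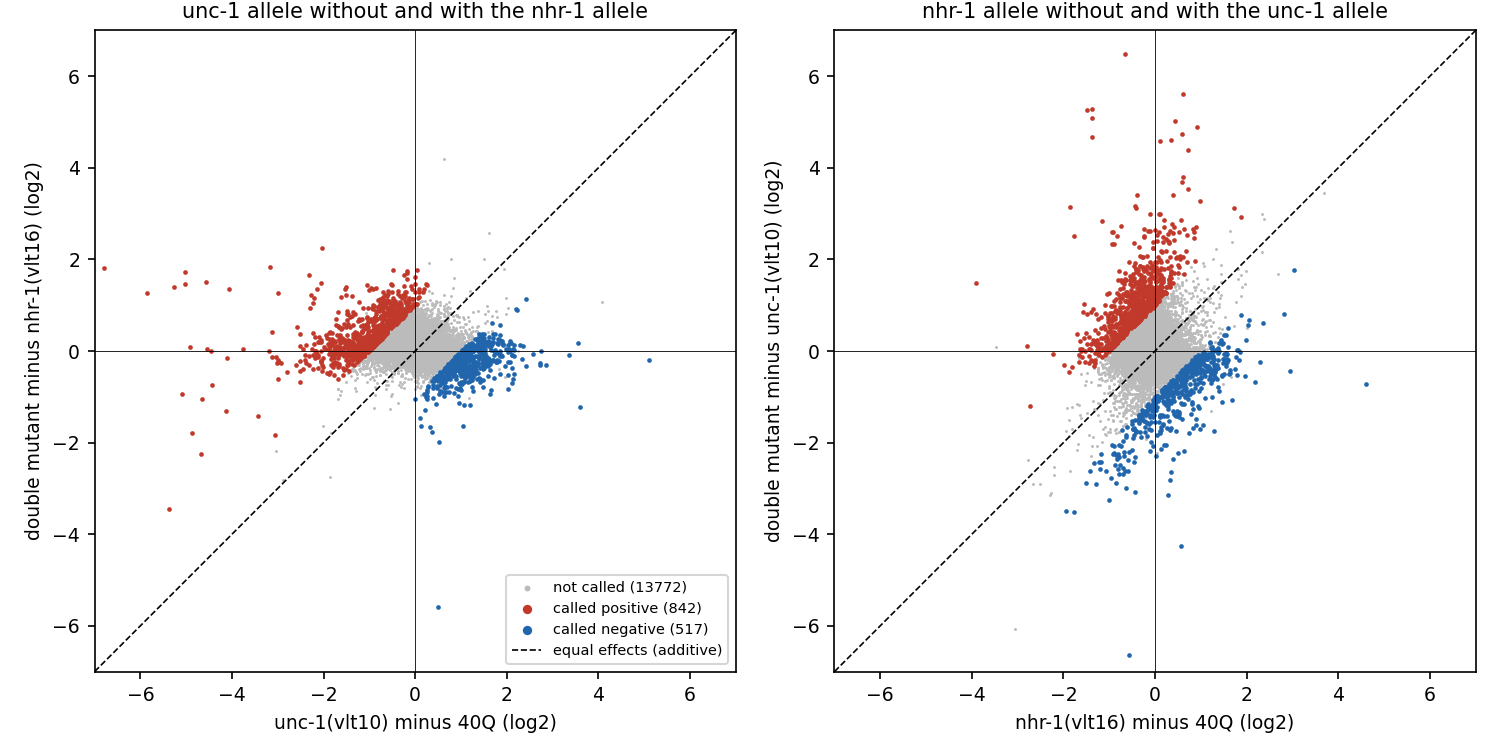
Effects of each allele on each of the 15131 genes as log2 fold changes, on the left the unc-1 allele in 40Q (x axis) and in nhr-1(vlt16) (y axis), on the right the nhr-1 allele in 40Q (x axis) and in unc-1(vlt10) (y axis). Grey points are genes not called for the interaction, and in both panels the 842 positive genes (red) lie above and the 517 negative genes (blue) below the dashed line of equal effects.

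The effects of each allele can be compared between backgrounds that share no library. In 40Q, the unc-1 allele changed 926 genes (6.12%), of which 417 rose (2.76%) and 509 fell (3.36%). In nhr-1(vlt16), it changed 145 genes (0.958%), with 113 higher (0.747%) and 32 lower (0.211%). Only 18 genes were called in the same direction in both, which is 1.94% of the first list and 12.4% of the second, and 12 were called in opposite directions. Across all genes tested, the log2 effects of the unc-1 allele in the 2 backgrounds had a Pearson correlation of -0.088, a description over genes, which are not independent. Their median size was 0.199 in 40Q and 0.108 in nhr-1(vlt16). The unc-1 allele thus had few effects of over 2-fold in animals that already carried the nhr-1 allele.

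The nhr-1 allele changed 437 genes in 40Q (2.89%), 222 up (1.47%) and 215 down (1.42%), and 924 in unc-1(vlt10) (6.11%), 559 up (3.69%) and 365 down (2.41%). Here 95 genes were called in the same direction in both backgrounds, 21.7% of the first list and 10.3% of the second, and 10 in opposite directions. The correlation across genes was 0.147, and the median effect size was 0.172 in 40Q and 0.173 in unc-1(vlt10). The effect of the nhr-1 allele therefore had the same typical size with and without the unc-1 allele, on genes that were mostly different among those called.

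The shape of the departure was described by asking which genotype lay apart, that is, had all 6 libraries above or all 6 below the other 18. Of the 1359 called genes, 520 (38.3%) had unc-1(vlt10) apart, 347 with this genotype low and 173 with it high. Over all genes tested, the unc-1(vlt10) libraries were all below the rest in 6.54% and all above in 4.79%. The 40Q libraries were highest in 61 called genes (4.49% of those called) and lowest in 28 (2.06%), against 1.94% and 1.03% among all genes tested. The count columns of 40Q are named with another letter than those of the mutants, for a reason not given in the sources used here. A difference in handling between 40Q and the mutants cannot be told apart from genotype, and 40Q enters every interaction. The nhr-1(vlt16) libraries were lowest in 17 called genes (1.25% of those called) and highest in 8 (0.589%), against 0.886% and 0.390% among all genes. The double mutants were lowest in 13 and highest in 13 (0.957% each), against 0.515% and 0.469%. Some genotype was apart in 611 of the called genes (45%), against 15.6% of all genes, and none in 748 (55%). The unc-1(vlt10) libraries were thus apart in 520 of the 611 called genes with a genotype apart.

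**Figure D2:**
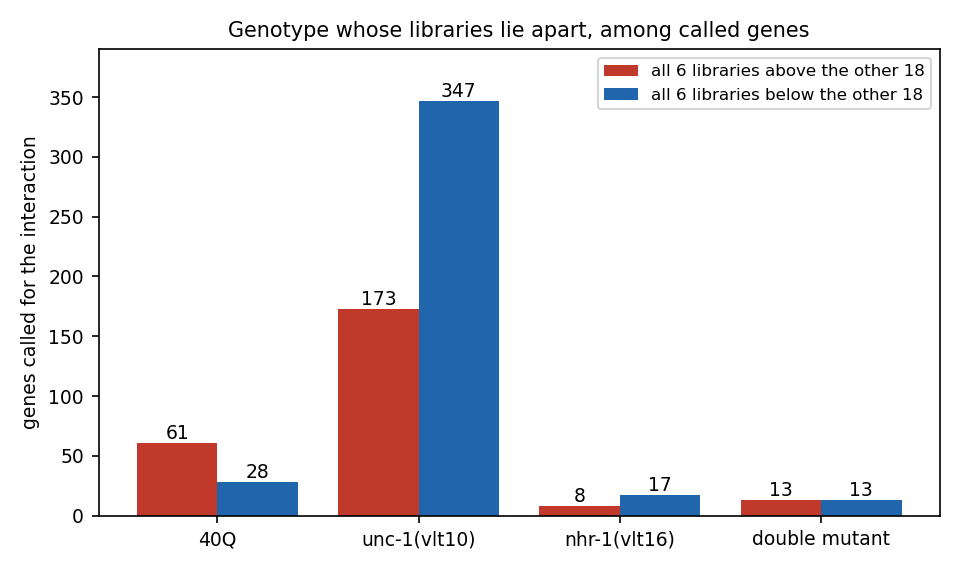
Number of called genes (y axis) in which 1 genotype (x axis) had all 6 libraries above the other 18 (red) or all below (blue). The bars for unc-1(vlt10), at 173 and 347 genes, exceed those of every other genotype, and a gene with 2 genotypes at opposite ends is counted under both.

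Medians give the size of each form. In the 305 genes with unc-1(vlt10) alone at the bottom, the unc-1 allele had a median effect of -1.31 in 40Q and 0.07 in nhr-1(vlt16). In the 167 genes with unc-1(vlt10) alone at the top, the effects were 1.45 and 0.00. In the 30 genes with 40Q alone at the top, both alleles lowered expression in 40Q, by medians of -1.22 for unc-1 and -1.07 for nhr-1, and the second allele added 0.22 or 0.36. In the 26 genes with 40Q alone at the bottom the values were 1.15 and 1.26, with -0.18 and -0.16 for the second allele. In those 2 groups the median effect of either allele exceeded 2-fold in 40Q and was smaller in the other mutant. The 441 positive genes with no genotype apart showed a mutual pattern, with median effects of opposite sign in the 2 backgrounds. The unc-1 allele had a median effect of -0.76 in 40Q and 0.66 in nhr-1(vlt16), and the nhr-1 allele -0.62 in 40Q and 0.80 in unc-1(vlt10). Their median interaction was 1.33, against 1.35 in the 305 genes. In the 307 negative genes with none apart, the effects were 0.97 and -0.38 for the unc-1 allele and 0.84 and -0.49 for the nhr-1 allele. These groups were formed on the same libraries, so their medians are a description.

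Among genes whose log2 CPM averaged 1 or more, the 5 with the largest departures were nearly silent in unc-1(vlt10) alone. They include members of the nspe class, genes for short nematode-specific peptides whose function is not known, which sit together on chromosome II. For nspe-1 (WBGene00012591, chromosome II, 12620649 to 12620864), the levels were 12.4 to 17.4 CPM in 40Q (median 14.3), 0.3495 to 0.611 in unc-1(vlt10) (median 0.475), 19.96 to 27.7 in nhr-1(vlt16) (median 20.97) and 20.5 to 30.1 in double mutants (median 23.4). All unc-1(vlt10) libraries lay below the 18 others, while the double mutants, with an additive expectation of 0.848 CPM, overlapped nhr-1(vlt16). The interaction was 5.02 (standard error 0.19, adjusted p = 3.36e-19, edgeR with Benjamini-Hochberg adjustment). Its paralog nspe-2 (chromosome II, 12619173 to 12619388) had 5.13 to 6.52 CPM in 40Q (median 5.67), 0.0509 to 0.466 in unc-1(vlt10) (median 0.206), 7.002 to 9.603 in nhr-1(vlt16) (median 7.38) and 6.6 to 10.1 in double mutants (median 7.71). For nspe-7 (chromosome II, 12627187 to 12627570), the levels were 5.05 to 6.54 CPM in 40Q (median 5.68), 0.0966 to 0.447 in unc-1(vlt10) (median 0.2397), 7.68 to 11.2 in nhr-1(vlt16) (median 9.38) and 4.58 to 7.04 in double mutants (median 5.68), so that unc-1(vlt10) lay lowest and nhr-1(vlt16) highest. Of the same class, nspe-4 (chromosome II, 12612518 to 12614023) was called in the other direction, with 0.158 to 0.534 CPM in 40Q (median 0.232), 0.218 to 0.782 in unc-1(vlt10) (median 0.621), 0.0455 to 0.788 in nhr-1(vlt16) (median 0.342) and 0.109 to 0.553 in double mutants (median 0.224) and an interaction of -1.46 (standard error 0.591). Its genotypes overlapped, and its call was lost in 15 of the 24 leave-one-out fits, all but those without 40Q replicates 3 and 4, unc-1(vlt10) replicates 4 and 5, nhr-1(vlt16) replicates 3, 4 and 5 and double mutant replicates 5 and 6. The interactions were 4.60 for nspe-2 and 3.68 for nspe-7 (standard errors 0.234 and 0.228). These genes are close copies between which reads can be split, so they are not independent of each other. The astacin metalloprotease gene nas-3 (chromosome V, 9478163 to 9479601), whose product belongs to a family of secreted zinc proteases, had 3.74 to 5.55 CPM in 40Q (median 4.82), 0.04496 to 0.306 in unc-1(vlt10) (median 0.121), 6.55 to 8.07 in nhr-1(vlt16) (median 7.06) and 3.14 to 4.72 in double mutants (median 3.69). Its interaction was 4.16 (standard error 0.265), and here the double mutants stayed below nhr-1(vlt16), with an effect of the unc-1 allele of -5.10 in 40Q and of -0.93 in nhr-1(vlt16). A similar remainder was present in Y48E1B.8 (chromosome II, 13585705 to 13589038), with 5.65 to 7.497 CPM in 40Q (median 6.11), 0.0874 to 0.407 in unc-1(vlt10) (median 0.233), 4.15 to 5.27 in nhr-1(vlt16) (median 4.53) and 1.42 to 3.06 in double mutants (median 2.32) and an interaction of 3.60. This gene overlaps clec-145 on the other strand, and since the strand setting of the counting is not given, reads of these genes cannot be told apart.

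Among transporters of amino acids and cations the called genes were all positive, and 10 of these 11 had unc-1(vlt10) lowest. Of 22 tested amino acid and peptide transporters, 4 were called (18.2%, against 8.98% of all genes), all with unc-1(vlt10) lowest. The gene pept-1, which encodes the intestinal transporter for dipeptides and tripeptides, had 75.2 to 96.2 CPM in 40Q (median 93.8), 18.6 to 23.8 in unc-1(vlt10) (median 20.7), 59.2 to 71.2 in nhr-1(vlt16) (median 66.6) and 60.5 to 84.2 in double mutants (median 76.7). Its interaction was 2.30 (standard error 0.0953, adjusted p = 2.18e-18, edgeR with Benjamini-Hochberg adjustment). The amino acid transporter gene aat-7 (chromosome II, 1386870 to 1391639) was almost without reads in unc-1(vlt10), with 1.09 to 1.47 CPM in 40Q (median 1.25), 0 to 0.0932 in unc-1(vlt10) (median 0.0479), 1.22 to 1.57 in nhr-1(vlt16) (median 1.37) and 0.878 to 1.81 in double mutants (median 1.42) and an interaction of 4.46. Of 41 genes for sodium-proton exchangers, sodium-calcium exchangers and other cation transporters, 15 were positive and 11 negative by adjusted p alone (edgeR, Benjamini-Hochberg). Among the 41, unc-1(vlt10) was lowest in 6 called genes, and 7 were called in all (17.1%, against 8.98% of all genes). They were zipt-2.3 (3.54), a gene of the ZIP family of zinc transporters that overlaps the potassium channel gene kqt-3, ncx-7 (2.08), nhx-6 (1.94), nhx-1 (1.72), the intestinal exchanger gene nhx-2 (1.25), ncx-6 (1.06) and ncx-10 (1.01). For ncx-7, a sodium-calcium exchanger, the levels were 9.16 to 11.6 CPM in 40Q (median 10.6), 2.08 to 3.36 in unc-1(vlt10) (median 2.7), 8.25 to 9.87 in nhr-1(vlt16) (median 8.86) and 7.77 to 10.5 in double mutants (median 9.89). Among 55 potassium channel genes 3 were called, all positive, with twk-16 at 1.83, a share of 5.45% that is near the 5.56% called positive over all genes. The medians of these lists, at 0.24 for the amino acid transporters, 0.03 for the exchangers and 0.14 for the channels, stand beside 0.001 over all genes.

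Genes of fatty acid synthesis, elongation and desaturation departed in 1 direction. Of 23 tested, 8 were called, all positive (34.8%, against 5.56% of all genes). Of the 8, 6 had unc-1(vlt10) lowest, against 25.5% of all called genes. Their list includes genes that the study named from these libraries, so the count is not independent evidence of its direction. The median member was at -0.43 in unc-1(vlt10), -0.18 in nhr-1(vlt16) and -0.16 in double mutants relative to 40Q, where the sum was -0.61. The elongase genes elo-6 and elo-5, which act on monomethyl branched-chain fatty acids and lie next to each other on chromosome IV, had the largest values. For elo-6 (WBGene00001244, chromosome IV, 5386629 to 5388559), the levels were 173 to 220.2 CPM in 40Q (median 206), 36.9 to 49.6 in unc-1(vlt10) (median 45.03), 184 to 229 in nhr-1(vlt16) (median 206) and 205 to 252 in double mutants (median 228), against an additive expectation of 44.6 CPM for the double mutants. The double mutants overlapped 40Q and nhr-1(vlt16) and did not overlap unc-1(vlt10). For elo-5, which overlaps F41H10.3 on the other strand, they were 112 to 138 CPM in 40Q (median 127), 28.1 to 40.2 in unc-1(vlt10) (median 34.4), 105 to 122 in nhr-1(vlt16) (median 119.7) and 118 to 139.7 in double mutants (median 134). The interactions were 2.37 (standard error 0.0906, adjusted p = 3.68e-19) and 2.06 (standard error 0.0926, adjusted p = 1.88e-17, both edgeR with Benjamini-Hochberg adjustment). The gene elo-2, which elongates palmitate, had an interaction of 1.64, and acs-1, an acyl-CoA synthetase for branched chains, 1.18. The palmitoyl desaturase gene fat-5, which overlaps twk-42 on the other strand, was at 1.61, elo-7 at 1.57 and elo-9 at 1.00.

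The stearoyl desaturase gene fat-7 had another form, with 40Q alone at the top. Its levels were 19.8 to 24.4 CPM in 40Q (median 22.8), 6.15 to 9.13 in unc-1(vlt10) (median 7.66), 6.93 to 9.32 in nhr-1(vlt16) (median 8.14) and 7.93 to 9.4 in double mutants (median 8.41), so that the 3 mutant genotypes overlapped each other and none reached 40Q. The unc-1 allele had an effect of -1.56 in 40Q and of 0.07 in nhr-1(vlt16), and the nhr-1 allele of -1.48 in 40Q and of 0.15 in unc-1(vlt10). The interaction was 1.63 (standard error 0.109, adjusted p = 2.06e-13, edgeR with Benjamini-Hochberg adjustment). Its close relative fat-6 is far more abundant, and reads of either could have been counted on the other. The remaining genes that the study named were positive but under 2-fold, at 0.65 for fat-6 and 0.62 for elo-1. The acetyl-CoA carboxylase gene pod-2, which overlaps W09B6.4 on the other strand, was at 0.52 and the fatty acid synthase gene fasn-1 at 0.50. In the synthesis of dafachronic acids, the steroid hormones of C. elegans, the Rieske oxygenase gene daf-36 was at 0.96 (adjusted p = 2.25e-09, and called without 40Q replicate 1) and the cytochrome P450 gene daf-9 at 0.42 (standard error 0.232, adjusted p = 0.14, edgeR with Benjamini-Hochberg adjustment).

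Among 61 genes of fatty acid activation and beta-oxidation, 5 were called positive (8.2%, against 5.56% of all genes) and 2 negative (3.28%, against 3.42%), with a median of 0.12. The hydroxyacyl-CoA dehydrogenase gene hacd-1 was the largest positive one, with 33.1 to 46.5 CPM in 40Q (median 41.2), 7.56 to 13.3 in unc-1(vlt10) (median 10.9), 45.8 to 57.7 in nhr-1(vlt16) (median 50.3) and 58.3 to 74.2 in double mutants (median 64.05) and an interaction of 2.30. The double mutants here lay above every other library. The negative ones, acs-2, an acyl-CoA synthetase of mitochondrial beta-oxidation, and cpt-3, a carnitine palmitoyl transferase, were highest in unc-1(vlt10). The levels of acs-2 were 194 to 240 CPM in 40Q (median 222), 455 to 550 in unc-1(vlt10) (median 525), 176 to 228 in nhr-1(vlt16) (median 195) and 132 to 176 in double mutants (median 158), with an interaction of -1.58 (standard error 0.092), and those of cpt-3 were 0.727 to 1.42 CPM in 40Q (median 0.992), 3.32 to 5.51 in unc-1(vlt10) (median 4.86), 1.15 to 2.44 in nhr-1(vlt16) (median 1.72) and 1.35 to 2.32 in double mutants (median 1.84), with -2.15. Of 20 lipases and lipid droplet genes, 3 were called (15%, against 8.98% of all genes). They were abhd-3.2 (1.94) and lipl-1 (1.09), both positive, and lipl-4 (-1.88), a lysosomal acid lipase gene, negative. The lysosomal lipid chaperone gene lbp-8 was called at 1.25. In the methionine cycle and phosphatidylcholine list, 2 of 21 were positive (9.52%, against 5.56% of all genes). They were the phosphotransferase gene cept-1 (1.496) and the cystathionine lyase gene cth-2 (1.47). Only sams-2, of the S-adenosylmethionine synthetase family and annotated as a pseudogene, was negative (-1.21), which is 4.76% against 3.42%.

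The called yolk protein genes had unc-1(vlt10) lowest, as elo-6 and elo-5 did. Of the 6 vitellogenins, which encode the lipoproteins that the intestine loads into oocytes, vit-4, vit-1 and vit-3 were called, all positive and all with unc-1(vlt10) lowest. For vit-4 (chromosome X, 3558769 to 3563965), the levels were 2108 to 2465 CPM in 40Q (median 2348), 738 to 872 in unc-1(vlt10) (median 805), 1983 to 2176 in nhr-1(vlt16) (median 2077) and 1683 to 2178 in double mutants (median 1949), and the additive expectation for double mutants was 726 CPM. The interactions were 1.42 (standard error 0.0702, adjusted p = 1.93e-16, edgeR with Benjamini-Hochberg adjustment), 1.40 for vit-1 and 1.24 for vit-3. These genes are close copies as well. Summed over the 6 vitellogenins, the level was 46430 to 51210 CPM in 40Q and 32240 to 36370 in unc-1(vlt10). It was 41130 to 46720 in nhr-1(vlt16) and 34320 to 45560 in double mutants. In the sum, double mutants thus lay below 40Q and overlapped unc-1(vlt10).

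**Figure D3:**
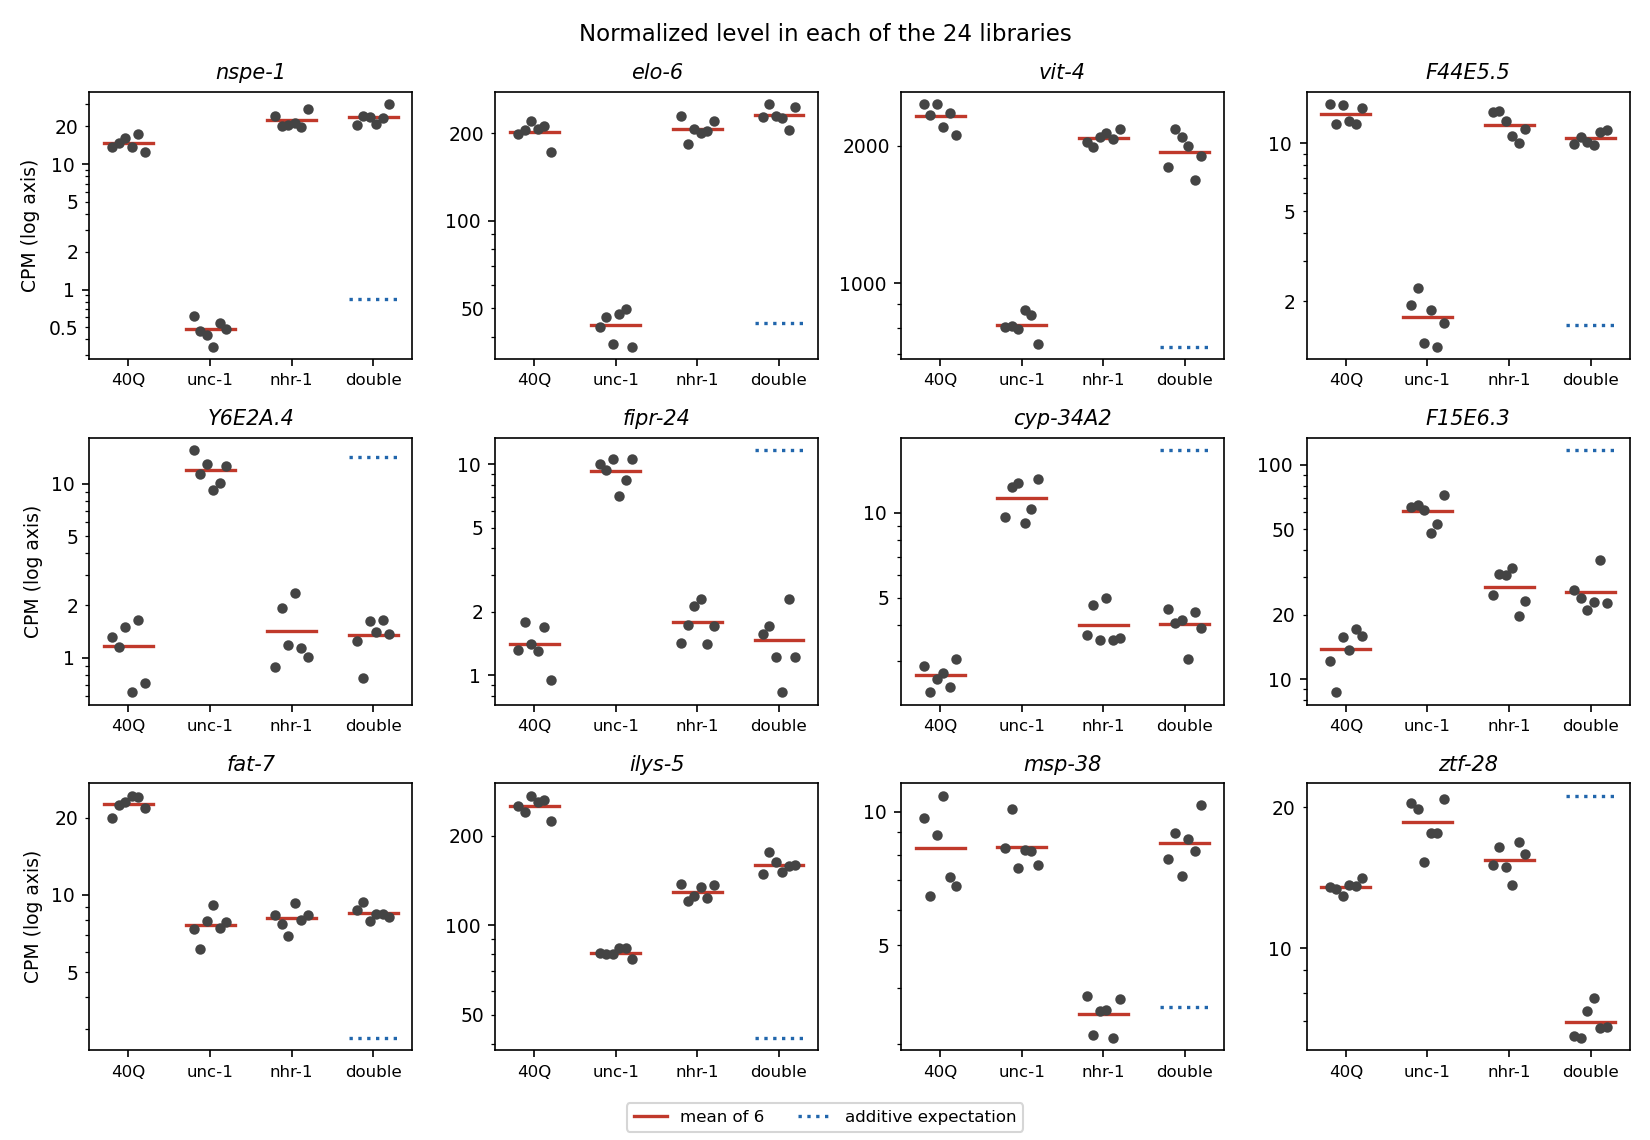
CPM after TMM normalization (y axes, log scale) of 12 called genes in each of the 24 libraries, by genotype (x axes), with points for libraries, red lines for the mean of 6 and blue dotted lines for the additive expectation of the double mutants. From nspe-1 to F15E6.3 (the upper and middle rows) unc-1(vlt10) lies apart, fat-7 and ilys-5 have 40Q highest, msp-38 has nhr-1(vlt16) lowest and ztf-28 has double mutants lowest.

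Inducible heat shock genes were called positive in 5 of 20 (25%, against 5.56% of all genes) and negative in 1 (5%, against 3.42%). Their products refold or hold damaged proteins, and the transgene of all 4 genotypes makes an aggregating protein. For F44E5.5 (chromosome II, 11759662 to 11761861), which with its neighbour F44E5.4 encodes inducible Hsp70, the levels were 12.2 to 14.9 CPM in 40Q (median 13.4), 1.26 to 2.28 in unc-1(vlt10) (median 1.72), 10 to 13.9 in nhr-1(vlt16) (median 12.02) and 9.85 to 11.5 in double mutants (median 10.4), and for F44E5.4 they were 9.8 to 16.9 CPM in 40Q (median 13.6), 1.26 to 2.33 in unc-1(vlt10) (median 1.6), 8.55 to 13.1 in nhr-1(vlt16) (median 11.4) and 7.79 to 11.7 in double mutants (median 9.22). The interactions were 2.79 and 2.76 (standard errors 0.146 and 0.188), and the 2 genes are nearly identical copies. For hsp-70, they were 51 to 60.4 CPM in 40Q (median 55.1), 13.8 to 17.6 in unc-1(vlt10) (median 14.9), 35.7 to 48.1 in nhr-1(vlt16) (median 44.3) and 27.5 to 35.4 in double mutants (median 31.4), with an interaction of 1.40 (standard error 0.0963, adjusted p = 3.33e-13, edgeR with Benjamini-Hochberg adjustment). In hsp-70 the double mutants lay above unc-1(vlt10) and below 40Q and nhr-1(vlt16). The small heat shock genes hsp-16.1 (1.31) and hsp-16.2 (1.25) were also called, while hsp-12.6, a small heat shock gene of low level, was called negative (-1.08). Its call was lost without any of 40Q replicates 1 and 5, unc-1(vlt10) replicate 1 and nhr-1(vlt16) replicate 3. The median of the list was 0.62, with -0.45 in unc-1(vlt10), -0.18 in nhr-1(vlt16) and -0.43 in double mutants relative to 40Q, where the sum was -0.85. Gene by gene, the median difference of double mutants from unc-1(vlt10) was 0.34. None of 49 constitutive chaperones, 19 genes of the unfolded protein response of the endoplasmic reticulum or 10 of that of mitochondria was called. By adjusted p alone (edgeR, Benjamini-Hochberg), 42.9%, 42.1% and 30.0% of these lists departed, against 47.0% of all genes. Among 61 prion-like abu and pqn genes 9 were called positive (14.8%, against 5.56% of all genes) and 1 negative (1.64%, against 3.42%), with a median of 0.16.

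Cuticle collagens gave the largest share of called genes, 49.1%, among the lists with at least 10 members tested. Of 114 tested, 52 were called positive (45.6%, against 5.56% of all genes) and 4 negative (3.51%, against 3.42%), with a median interaction of 0.98. Relative to 40Q, the median collagen was at -0.50 in unc-1(vlt10), -0.22 in nhr-1(vlt16) and 0.26 in double mutants, where the sum was -0.74. Only 10 of the 56 had unc-1(vlt10) lowest, and 43 had no genotype apart. Abundant collagens were among those with small standard errors. For col-81 (chromosome II, 11012397 to 11013767), the levels were 266 to 351 CPM in 40Q (median 316), 123 to 141 in unc-1(vlt10) (median 136), 226 to 266 in nhr-1(vlt16) (median 243) and 313 to 441 in double mutants (median 402), and its interaction was 1.89 (standard error 0.0976, adjusted p = 5.09e-16, edgeR with Benjamini-Hochberg adjustment). For col-129, they were 410 to 559 CPM in 40Q (median 479), 198 to 254 in unc-1(vlt10) (median 236), 340 to 422 in nhr-1(vlt16) (median 398) and 525 to 655 in double mutants (median 606), with 1.65, and for col-139 358 to 468 CPM in 40Q (median 415), 178 to 215 in unc-1(vlt10) (median 202), 299 to 351 in nhr-1(vlt16) (median 338) and 371 to 534 in double mutants (median 500), with 1.61. In all 3 genes both single mutants had lower medians than 40Q and the double mutants a higher one. The largest interaction with unc-1(vlt10) at the bottom was that of col-149 (2.25), which overlaps B0024.15 on the other strand.

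In the other direction stood col-95 (chromosome III, 11703994 to 11705091), with 260 to 307 CPM in 40Q (median 272), 569 to 672 in unc-1(vlt10) (median 627), 596 to 679 in nhr-1(vlt16) (median 659) and 595 to 738 in double mutants (median 641). Each allele raised it about equally, the mutant genotypes overlapped, and 40Q lay below all of them, with an interaction of -1.16 (standard error 0.0715). The negative value of col-165 (-5.32) rests on very few reads and lost its call on the linear scale and without nhr-1(vlt16) replicate 2. Summed over the list, the collagens made up 28150 to 30290 CPM in unc-1(vlt10) (median 28880), against 35100 to 42450 in 40Q (median 38190), 34220 to 38360 in nhr-1(vlt16) (median 37430) and 34430 to 44080 in double mutants (median 38630). Collagen mRNA changes with the moulting cycle, and stage was not scored. Of 39 moulting genes, 3 were called positive and 1 negative (10.3% in all, against 8.98% of all genes), with a median of 0.25. Of 20 furrow and body-shape collagens 4 were called positive (20%, against 5.56% of all genes). They were dpy-4, which overlaps atln-2 on the other strand, dpy-13, rol-6 and dpy-5, with values of 1.05 to 1.22. The latter count fell to 2 without any of 40Q replicates 1 and 2, unc-1(vlt10) replicates 2 and 6, nhr-1(vlt16) replicate 4 and double mutant replicate 3. The part of stage in the collagen departures was not tested.

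Hedgehog-related genes, which in nematodes encode secreted proteins of the epidermis and other epithelia, had medians of the same signs as the collagens. Of 34, 10 were called positive (29.4%, against 5.56% of all genes) and 1 negative (2.94%, against 3.42%), with a median of 0.65. The negative one, grl-14 (-1.64), overlaps sbt-1 on the other strand. The median member was at -0.36 in unc-1(vlt10), -0.17 in nhr-1(vlt16) and 0.19 in double mutants, where the sum was -0.56. The groundhog gene grd-13 had 3.79 to 5.58 CPM in 40Q (median 4.47), 0.9304 to 1.57 in unc-1(vlt10) (median 1.24), 1.09 to 1.92 in nhr-1(vlt16) (median 1.77) and 1.77 to 2.52 in double mutants (median 2.18), with 40Q above all other libraries and an interaction of 2.29. For grd-14, the levels were 5.39 to 7.09 CPM in 40Q (median 6.08), 1.26 to 3.72 in unc-1(vlt10) (median 2.06), 3.57 to 6.05 in nhr-1(vlt16) (median 4.13) and 5.69 to 7.97 in double mutants (median 6.63), with 2.06. Of 29 cuticlins and other zona pellucida proteins, 1 was called positive (3.45%, against 5.56% of all genes), cutl-18 (1.87), which overlaps T03F7.7. Another 4 were negative (13.8%, against 3.42%). The count of 5 fell to 3 without any of 40Q replicates 3 and 5, nhr-1(vlt16) replicate 1 and double mutant replicates 5 and 6.

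**Figure D4:**
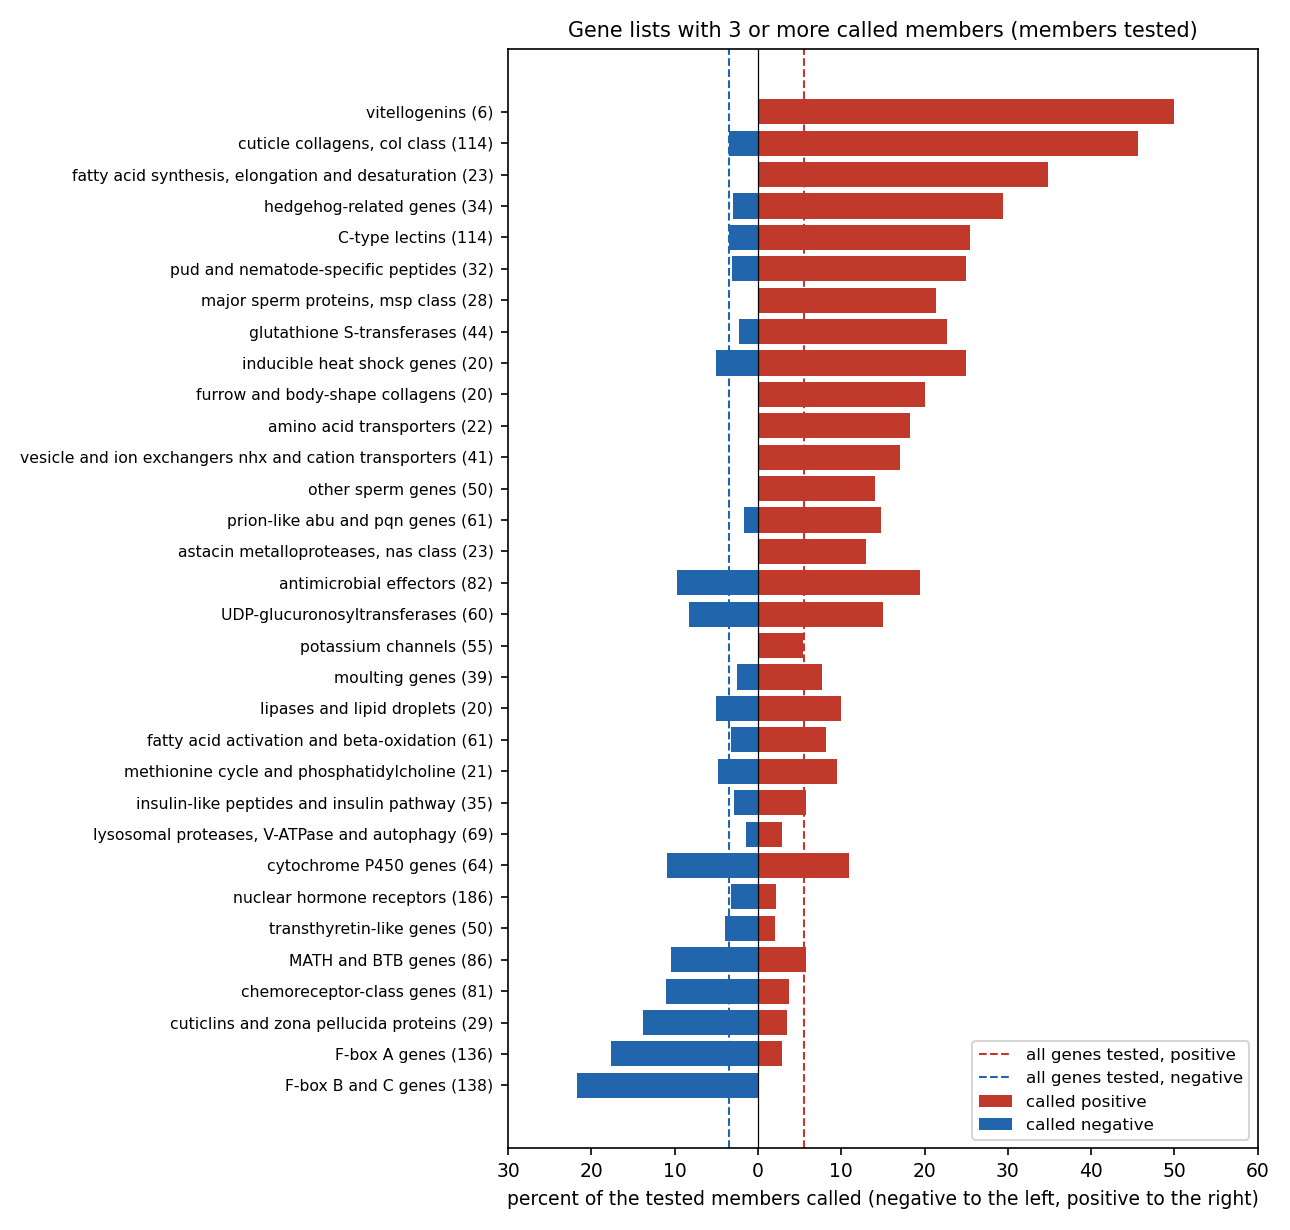
Percent of the tested members called (x axis), positive in red to the right and negative in blue to the left, for the gene lists with at least 3 called members (y axis, members tested in parentheses), with dashed lines at the shares over all genes tested, 5.56% and 3.42%. The vitellogenins and the collagens, at 45.6% positive, have the longest red bars, and the F-box B and C genes have a blue bar alone.

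Sperm genes that were called were all positive, and most of the major sperm protein genes among them had the nhr-1(vlt16) libraries lowest. Major sperm proteins form the cytoskeleton of the crawling sperm and signal to the oocyte. Of 28 tested, 6 were called, all positive (21.4%, against 5.56% of all genes), and 5 of the 6 had nhr-1(vlt16) lowest. Against 3522 of all 15131 genes, all 28 had an adjusted p below 0.05 with a positive sign (edgeR, Benjamini-Hochberg). Their median was -0.05 in unc-1(vlt10), -0.97 in nhr-1(vlt16) and -0.18 in double mutants relative to 40Q, where the sum was -1.04. For msp-38, which overlaps dhs-12 on the other strand, the levels were 6.47 to 10.9 CPM in 40Q (median 7.996), 7.49 to 10.1 in unc-1(vlt10) (median 8.18), 3.09 to 3.84 in nhr-1(vlt16) (median 3.57) and 7.16 to 10.4 in double mutants (median 8.42), so that nhr-1(vlt16) did not overlap the other genotypes. Its interaction was 1.28 (standard error 0.162, adjusted p = 1.13e-07, edgeR with Benjamini-Hochberg adjustment). For msp-81, they were 14.5 to 21.9 CPM in 40Q (median 19.4), 14.5 to 19 in unc-1(vlt10) (median 18.2), 6.73 to 9.9 in nhr-1(vlt16) (median 9.15) and 14.8 to 17.6 in double mutants (median 16.9), with 1.01. Summed over the class, the level was 154.6 to 190.5 CPM in nhr-1(vlt16), against 302 to 422 in 40Q, 322.5 to 365.3 in unc-1(vlt10) and 278.5 to 320.5 in double mutants. The msp genes are near-identical copies, so they act as few independent measurements. Many of the interactions were close to 2-fold, and without 40Q replicate 4 the count of called members was 2, or 3 with libraries scaled by their totals alone.

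Of 50 other sperm genes, 7 were called, all positive (14%, against 5.56% of all genes), with a median of 0.55. Of the 7, 2 had nhr-1(vlt16) lowest and 5 had no genotype apart. The largest was ssp-33, a gene of the sperm-specific class, at 0.631 to 1.504 CPM in 40Q (median 0.884), 0.483 to 1.14 in unc-1(vlt10) (median 0.709), 0.227 to 0.475 in nhr-1(vlt16) (median 0.397) and 0.613 to 1.22 in double mutants (median 0.875) and an interaction of 1.54. In whole animals, fewer sperm and less RNA per sperm cannot be told apart, and the same holds for every tissue here. The oocyte and eggshell list went the other way and by less. None of its 32 members was called by edgeR or DESeq2, while 25 had an unadjusted p below 0.05. The same 25 (78.1%) had a negative interaction with adjusted p below 0.05 (edgeR, Benjamini-Hochberg), against 47.0% of all genes in both directions together. The list had a median of -0.24. Its summed level was 18340 to 20010 CPM in 40Q, 20180 to 20910 in unc-1(vlt10) and 20170 to 22540 in nhr-1(vlt16), and 17980 to 19800 in double mutants. Among 28 genes of germ line proliferation and P granules none was called.

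Tissue markers were called in small numbers, and against the 8.98% of all genes these lists are too short to be read as low or high. Of 11 intestinal markers nhx-2 was called (9.09%), of 10 hypodermal ones dpy-13 and rol-6 (20%), of 14 pharyngeal ones phat-4 (7.14%) and of 10 of gonad sheath and spermatheca itr-1 (10%). The hypodermal count was 1 in 11 of the 24 leave-one-out fits, those without 40Q replicates 1, 2 and 5, unc-1(vlt10) replicates 2 and 6, nhr-1(vlt16) replicates 1, 3 and 4 and double mutant replicates 1, 3 and 4. The pharyngeal count was 3 without 40Q replicate 2 or double mutant replicate 1, and 2 without 40Q replicate 1, unc-1(vlt10) replicates 1 to 5, nhr-1(vlt16) replicates 3 to 6 or double mutant replicates 2, 5 and 6, and itr-1 was not called without unc-1(vlt10) replicate 2 or 4. Of 49 genes of muscle sarcomere and attachment, unc-52, which encodes perlecan, was called at 1.01, a value at the threshold that 5 of the 24 leave-one-out fits did not call. They were those without 40Q replicate 3, unc-1(vlt10) replicate 2, nhr-1(vlt16) replicates 1 and 5 or double mutant replicate 2. None was called among the body-wall muscle, neuron, and coelomocyte and glia markers. The summed level of the 10 body-wall muscle markers was 5675 to 6538 CPM in 40Q, above 4879 to 5223 in unc-1(vlt10) and 4668 to 5139 in nhr-1(vlt16), with 4764 to 5800 in double mutants. These sums move with the results above, and their part in them was not tested.

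Defence genes were called in both directions. Of 82 antimicrobial effectors, such as lysozymes and caenacins, 16 were called positive (19.5%, against 5.56% of all genes) and 8 negative (9.76%, against 3.42%). The list had a median of 0.51. All 8 negative ones had unc-1(vlt10) highest, while 11 of the positive ones had no genotype apart. The lysozyme gene ilys-5 (chromosome X, 6533490 to 6536840) had 224 to 273 CPM in 40Q (median 256), 76.8 to 84.2 in unc-1(vlt10) (median 80.5), 121 to 138 in nhr-1(vlt16) (median 130.1) and 148 to 176 in double mutants (median 159), so that the 4 genotypes were separated from each other, with an additive expectation of 41.8 CPM for double mutants. Its interaction was 1.93 (standard error 0.063, adjusted p = 1.88e-20, edgeR with Benjamini-Hochberg adjustment). The lysozyme gene lys-7 had 150 to 224 CPM in 40Q (median 193), 100 to 122 in unc-1(vlt10) (median 112), 117 to 136 in nhr-1(vlt16) (median 125) and 147 to 180 in double mutants (median 159), with 1.13. The infection response gene irg-2 stood opposite, with 6.89 to 15.2 CPM in 40Q (median 12.2), 48.1 to 66.3 in unc-1(vlt10) (median 60.6), 3.46 to 7.95 in nhr-1(vlt16) (median 5.41) and 4.35 to 9.73 in double mutants (median 5.5) and an interaction of -2.25 (standard error 0.265). It was highest in unc-1(vlt10), as were irg-1 (-1.96) and fipr-24 (-2.99), a gene of the class related to fungus-induced peptides, for which the levels were 0.9497 to 1.79 CPM in 40Q (median 1.36), 7.04 to 10.6 in unc-1(vlt10) (median 9.67), 1.41 to 2.297 in nhr-1(vlt16) (median 1.73) and 0.8295 to 2.297 in double mutants (median 1.39).

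The gene dod-24, named as lying downstream of DAF-16, was one of 7 called genes, lipl-1 among them, in which double mutants alone lay apart at the top. Its levels were 1.74 to 2.7 CPM in 40Q (median 1.83), 1.45 to 2.71 in unc-1(vlt10) (median 1.97), 1.73 to 2.59 in nhr-1(vlt16) (median 2.08) and 5.49 to 7.87 in double mutants (median 6.57), so that neither allele alone moved its median by much, and double mutants lay above every other library. The interaction was 1.61 (standard error 0.208). Of 114 C-type lectins, carbohydrate-binding proteins many of which respond to bacteria, 29 were called positive (25.4%, against 5.56% of all genes). Another 4 were negative (3.51%, near the 3.42% of all genes), and the median was 0.44. The lectin gene clec-10 had 15.3 to 23.3 CPM in 40Q (median 20.5), 6.71 to 8.04 in unc-1(vlt10) (median 7.17), 9.19 to 11.1 in nhr-1(vlt16) (median 9.81) and 15.3 to 21.4 in double mutants (median 17.3), with all 12 single mutant libraries below the 12 others, and an interaction of 2.28 (standard error 0.124). A few lectins were barely read. For clec-207 (chromosome V, 2096072 to 2097272), 39 reads were counted over the 6 libraries of 40Q, 0 in unc-1(vlt10), 25 in nhr-1(vlt16) and 80 in double mutants. Of these libraries, 40Q replicates 2 and 5 and nhr-1(vlt16) replicates 2, 4 and 6 also had no reads. With a floor of 3 reads over the unc-1(vlt10) libraries, double mutants were 33.6-fold above the additive expectation. That value takes the other pooled counts as exact. The fitted interaction was 7.13, with a standard error of 1.78. The floor covers counting error only.

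F-box genes were the main class below the additive expectation. F-box proteins choose substrates for SCF ubiquitin ligases, and nematodes carry large, rapidly evolving families of them. Of 138 F-box B and C genes, 30 were called, all negative (21.7%, against 3.42% of all genes), with a median of -0.67. A negative interaction with adjusted p below 0.05 (edgeR, Benjamini-Hochberg) was found in 100 of them, against 3592 of all 15131 genes. The median member was raised by each allele alone, by 0.57 in unc-1(vlt10) and 0.58 in nhr-1(vlt16), and was at 0.46 in double mutants, where the sum was 1.14. None of the 30 had unc-1(vlt10) apart, 28 had no genotype apart and 2 had 40Q lowest. For fbxc-43, the levels were 2.09 to 2.82 CPM in 40Q (median 2.26), 4.06 to 7.28 in unc-1(vlt10) (median 5.42), 2.91 to 5.17 in nhr-1(vlt16) (median 3.58) and 2.58 to 3.64 in double mutants (median 3.19), with an interaction of -1.49 (standard error 0.207), and 40Q overlapped the double mutants at their lower end. For fbxb-98, they were 0.38 to 0.96 CPM in 40Q (median 0.506), 0.628 to 1.86 in unc-1(vlt10) (median 1.04), 1 to 1.92 in nhr-1(vlt16) (median 1.35) and 0.48 to 0.912 in double mutants (median 0.828), with -1.87.

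The F-box A genes had another form. Of 136, 24 were called negative (17.6%, against 3.42% of all genes) and 4 positive (2.94%, against 5.56%), with a median of -0.45. Their median member was at 0.47 in unc-1(vlt10), 0.08 in nhr-1(vlt16) and 0.09 in double mutants relative to 40Q, where the sum was 0.48. Of the 28, 14 had unc-1(vlt10) highest. For fbxa-60, the levels were 20.6 to 29.8 CPM in 40Q (median 28.8), 49.5 to 61.5 in unc-1(vlt10) (median 55.6), 20.1 to 24.7 in nhr-1(vlt16) (median 22.4) and 20.3 to 24.7 in double mutants (median 22.2), with 40Q overlapping nhr-1(vlt16) and the double mutants, and an interaction of -1.08 (standard error 0.102). The products of MATH and BTB genes can serve as adaptors of CUL-3 ubiquitin ligases. Of 86 tested, 5 were called positive (5.81%, near the 5.56% of all genes), led by math-18 (2.20). Another 9 were negative (10.5%, against 3.42%), led by btb-13 (-1.66), which is annotated as a pseudogene. Of 31 proteasome subunits none was called. Members of these families share sequence, so reads may have been split between copies.

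**Figure D5:**
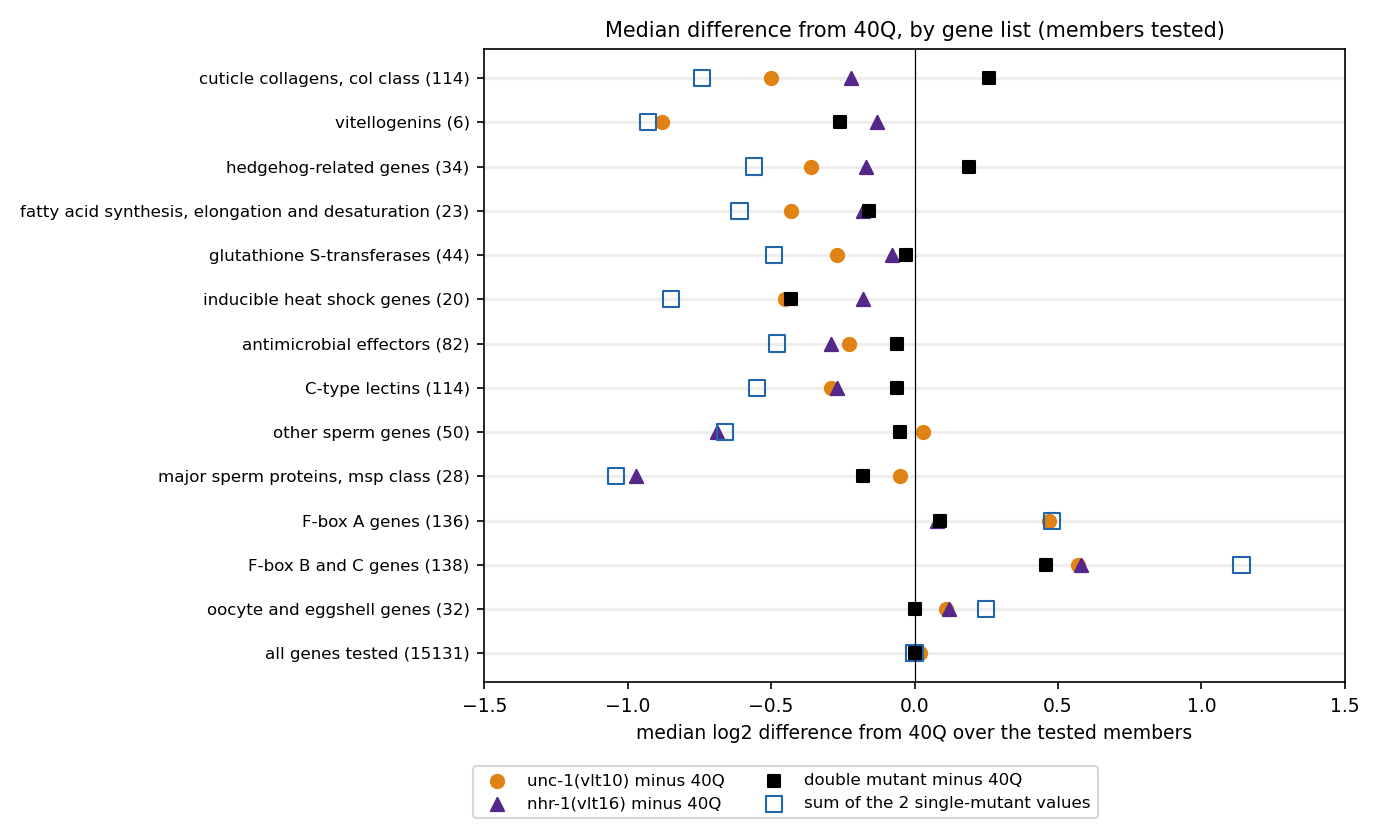
Median log2 difference from 40Q (x axis) over the tested members of the gene lists on the y axis, in unc-1(vlt10) (orange circles), nhr-1(vlt16) (purple triangles) and double mutants (black squares), with the median over genes of the summed single-mutant differences as open squares. For the collagens the double mutants are at 0.26 and the sum at -0.74, and for the F-box B and C genes at 0.46 and 1.14.

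Detoxification enzymes split by gene. Of 64 cytochrome P450 genes, 7 were called positive and 7 negative (10.9% each, against 5.56% and 3.42% of all genes). Their products oxidise lipids and foreign compounds, and unc-1(vlt10) was lowest in 6 of the called genes and highest in 6. The gene cyp-34A2 had 2.31 to 3.04 CPM in 40Q (median 2.65), 9.18 to 13.1 in unc-1(vlt10) (median 11.3), 3.55 to 4.99 in nhr-1(vlt16) (median 3.66) and 3.03 to 4.56 in double mutants (median 4.12), with an interaction of -2.07, and cyp-35A4 1.99 to 3.23 CPM in 40Q (median 2.47), 0.405 to 0.773 in unc-1(vlt10) (median 0.612), 0.938 to 1.59 in nhr-1(vlt16) (median 1.24) and 1.09 to 2.18 in double mutants (median 1.19), with 2.29. Both had unc-1(vlt10) apart, at opposite ends. Of 60 UDP-glucuronosyltransferases, which attach sugars to small molecules, 9 were positive (15%, against 5.56% of all genes) and 5 negative (8.33%, against 3.42%). Of the 14, 13 had unc-1(vlt10) apart. The gene ugt-63 (chromosome V, 5108180 to 5110772) had 1.73 to 2.77 CPM in 40Q (median 2.35), 0.335 to 0.458 in unc-1(vlt10) (median 0.383), 3.18 to 3.93 in nhr-1(vlt16) (median 3.41) and 3.48 to 6.27 in double mutants (median 5.19), with an interaction of 3.10 (standard error 0.231, adjusted p = 2.11e-12, edgeR with Benjamini-Hochberg adjustment), and ugt-52, highest in unc-1(vlt10), -1.38. Of 44 glutathione S-transferases, 10 were positive (22.7%, against 5.56% of all genes) and 1, gst-29 (-1.44), negative (2.27%, against 3.42%), with a median of 0.57. Of 31 genes of oxidative stress and metal response, 2 were called (6.45%, against 8.98% of all genes). They were the metallothionein gene mtl-1 (-1.67) and gpx-8 (-1.06), both negative. By adjusted p alone (edgeR, Benjamini-Hochberg), 9 of the list were positive and 4 negative, and its median was -0.02. The count of 2 fell to 1 without any of 40Q replicates 2, 3 and 4 and unc-1(vlt10) replicates 1, 2 and 5. It also did so without nhr-1(vlt16) replicate 1 or any of double mutant replicates 1, 2 and 3. For mtl-1, the levels were 1.31 to 2.77 CPM in 40Q (median 1.79), 3.77 to 4.94 in unc-1(vlt10) (median 4.48), 3.18 to 5.73 in nhr-1(vlt16) (median 5.33) and 2.1 to 5.3 in double mutants (median 3.49).

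Of 186 nuclear hormone receptors, 4 were called positive (2.15%, against 5.56% of all genes) and 6 negative (3.23%, against 3.42%), with a median of -0.19. The receptor gene nhr-121 had 9.56 to 12.3 CPM in 40Q (median 10.2), 2.95 to 3.78 in unc-1(vlt10) (median 3.08), 7.36 to 9.504 in nhr-1(vlt16) (median 8.66) and 7.895 to 10.3 in double mutants (median 9.54), with unc-1(vlt10) lowest and an interaction of 1.81. The receptor gene nhr-93 (WBGene00003683, chromosome V, 3536135 to 3538407) was the only gene of the whole table that was read in all 18 libraries of the other genotypes and in none of the 6 double mutant libraries. Its reads summed to 48 in 40Q, 71 in unc-1(vlt10), 33 in nhr-1(vlt16) and 0 in double mutants, although the latter were sequenced most deeply, and its reads per library were 2 to 16 in the 18 libraries that had any. With a floor of 3 reads over the double mutant libraries, double mutants were 20.1-fold below the additive expectation. That value takes the other pooled counts as exact, and the floor covers counting error only. The fitted interaction was -6.08, with a standard error of 0.834. The neighbouring receptor gene nhr-221 had 24, 42, 44 and 80 reads in the same order, with an interaction of -0.25 (adjusted p = 0.72, edgeR with Benjamini-Hochberg adjustment).

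Signalling genes were called at shares below, near and above that of all genes (8.98%), depending on the list. Of 35 insulin-like peptides and insulin pathway genes, ins-33 (2.07) and ins-6 (1.25) were called positive and ist-1 (-1.08) negative, 8.57% of the list and 3 genes that became 5 without double mutant replicate 5. The call of ist-1 was lost without 40Q replicate 4. Of 81 genes matched by name to chemoreceptor classes, 3 were positive (3.7%, against 5.56% of all genes) and 9 negative (11.1%, against 3.42%). By adjusted p alone (edgeR, Benjamini-Hochberg), 22 of the 81 departed, 9 positive and 13 negative, against 47.0% of all genes. The match takes in srp genes, which encode serpins and not chemoreceptors. Among the 12 called, srp-3 (2.15) was positive and srp-8 (-1.17), highest in unc-1(vlt10), was negative. Of the 12, 5 had unc-1(vlt10) highest, among them sri-39, with 1.58 to 2.18 CPM in 40Q (median 1.86), 5.84 to 7.78 in unc-1(vlt10) (median 6.84), 0.636 to 1.94 in nhr-1(vlt16) (median 1.102) and 0.361 to 1.53 in double mutants (median 0.812) and an interaction of -2.36. None of 76 listed neuropeptide genes and none of 56 synaptic and neuromuscular genes was called. The neuropeptide list leaves out nlp-34 (1.80) and nlp-27 (1.16), which were counted with the antimicrobial effectors and called positive. Of the neuropeptides, 37 had a positive and 1 a negative interaction with adjusted p below 0.05 (edgeR, Benjamini-Hochberg), together 50% against 47.0% of all genes, of which 3522 were positive and 3592 negative at this threshold. Their median was 0.35, and 43 had an unadjusted p below 0.05. Of the synaptic and neuromuscular genes, 15 were positive and 2 negative by adjusted p alone (edgeR, Benjamini-Hochberg), together 30.4% against 47.0%. Without unc-1(vlt10) replicate 6, 1 synaptic gene was called. Among the 34 stomatins and innexins, the families of UNC-1 and its partners, only inx-5 (1.02) was called (2.94%). That count became 0 without 40Q replicate 4 or double mutant replicate 2, and 2 without 40Q replicate 2 or 6.

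Over the 17 lists with no called member, 578 genes were tested, 318 had an unadjusted p below 0.05 and DESeq2 called 0. With adjusted p alone (edgeR, Benjamini-Hochberg), 188 were positive and 86 negative, together 47.4% and so near the 47.0% of all genes at this threshold. The cytosolic ribosomal proteins had 48 positive of 80 at a median of 0.16, and the respiratory chain 28 of 50 at 0.19. Ribosomal protein and respiratory chain genes thus departed by less than 2-fold where they passed the test. Leaving out 1 library gave 1 call in the respiratory chain and in the sterol list (40Q replicate 1) and in the osmotic list (40Q replicates 2, 4 and 5, unc-1(vlt10) replicates 2 and 5).

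A few genes had the rarer forms with double mutants apart or with both single mutants together. The gene ztf-28, for a zinc-finger protein, was lowest in double mutants, with 12.9 to 14.1 CPM in 40Q (median 13.6), 15.3 to 20.8 in unc-1(vlt10) (median 18.8), 13.6 to 16.9 in nhr-1(vlt16) (median 15.5) and 6.42 to 7.83 in double mutants (median 6.77) and an interaction of -1.62 (standard error 0.0998). Annotated as a pseudogene, snpc-3.3 is related to a subunit of the complex that transcribes small nuclear RNAs. Its levels were 3.11 to 4.71 CPM in 40Q (median 4.45), 4.97 to 5.62 in unc-1(vlt10) (median 5.18), 4.94 to 6.5 in nhr-1(vlt16) (median 6.24) and 1.695 to 2.22 in double mutants (median 1.95), with -1.97. The gene C39B5.5, highest in double mutants and lowest in unc-1(vlt10), had 9.78 to 14.1 CPM in 40Q (median 10.7), 3.38 to 5.8 in unc-1(vlt10) (median 4.11), 6.55 to 9.701 in nhr-1(vlt16) (median 8.52) and 14.4 to 16.3 in double mutants (median 15.02), with 2.20. Of the called genes, 34 had all 12 single mutant libraries below the 12 others (2.5% of those called, against 0.476% of all genes tested), among them ilys-5, clec-10, col-81, lys-7 and gsto-1, and 7 had them above (0.515%, against 0.397%). This last form was defined after the values were seen. One of the genes named, gsto-1, overlaps kle-2 on the other strand. In ilys-5 the double mutants still lay below 40Q, whereas in clec-10, col-81 and lys-7 they overlapped 40Q.

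Called genes were not spread evenly over the genome or over levels. The share called was 12.9% of 2961 genes on chromosome V and 9.94% of 2677 on II, against 5.61% of 2426 on I and 6.21% of 2334 on III. Chromosome X, which holds the transgene and both alleles, had 9.8% of 2164 genes, and none of 14 mitochondrial genes was called. With the genes ranked by level and cut into 4 equal groups, from the lowest to the highest 17.3%, 12.3%, 4.76% and 1.61% of genes were called. Of the 1359 called genes, 367 belonged to one of the 58 lists and 992 to none.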

How the data were processed

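RNA of 24 libraries was sequenced after poly(A) selection. According to the study and the submitters' processing notes, the authors aligned reads to WBcel235 with HISAT2 2.0.5, counted them per gene with HTSeq 0.6.1 and deposited whole counts without normalization. The strand setting, read length and annotation release are not given in the sources used here. The deposited FPKM table and the 6 tables of the authors' own comparisons, which hold fold changes and p-values, were not used. The count columns of 40Q start with another letter than those of the mutants, and its meaning is not given in the sources used here.

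Counts were fitted in R 4.3.3 with edgeR 4.0.16 (TMM, genotype as the only term, quasi-likelihood F-tests, all 24 libraries). The contrast was (double mutant minus nhr-1(vlt16)) minus (unc-1(vlt10) minus 40Q). P-values were adjusted by Benjamini-Hochberg over the 15131 genes with at least 10 counts in at least 6 libraries. Standard errors were taken from the log2 value and its F statistic. Additive expectations used geometric means with a prior count of 2. The analysis was tested on simulated data. Alternatives used DESeq2 1.42.0, limma 3.58.1, other scalings, filters and thresholds, thinned libraries, a replicate block and leave-one-out fits. Positions come from the Ensembl release 115 annotation, which held 15098 of the tested genes. Figures were drawn with matplotlib 3.10.9.

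The text names unc-1, nhr-1 and the lipid and hormone genes of the study. It also names the 6 largest positive and 6 largest negative called genes (log2 CPM averaging 1 or more), and the largest called gene in each direction of every list with at least 3 called members. For each genotype and side apart it names the 2 largest such genes. Other genes named were chosen after their values were seen. Members and gene lists were chosen with earlier results of these data known. The promoter motif count that had been planned was not run.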

Additional observations from a re-analysis of the deposited data

Results flagged for a closer look

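The 1359 called genes are those in which the effect of the unc-1 allele differed between the backgrounds with and without the nhr-1 allele, by the interaction test of edgeR. Of these, 842 were positive and 517 negative.

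Single libraries stood far from the 5 others of their genotype in 22 of 324 sets of 6 libraries, over 81 genes, by Dixon's test. Chance alone flags about 1 in 20 such sets. The widest gap was that of pud-1.1, a gene up-regulated in dauer formation mutants by its name, at 18.5 CPM in 40Q replicate 1 against 0.095 to 0.318 in the others. Its interaction of 5.41 rests on that library and could not be tested without it. High libraries were found for nspe-2 (nhr-1(vlt16) replicate 1, 9.6 CPM against 7 to 7.5), ins-33 (nhr-1(vlt16) replicate 4, 1.06 against 0.328 to 0.529) and sqst-2 (nhr-1(vlt16) replicate 3, 5.7 against 4.03 to 4.48). The receptor gene nhr-121 had a high library in 40Q (replicate 3, 12.3 CPM against 9.56 to 10.5) and another in unc-1(vlt10) (replicate 2, 3.77 against 2.95 to 3.24). In unc-1(vlt10) replicate 2, msp-38 was at 10.1 CPM against 7.49 to 8.3.

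In unc-1(vlt10) replicate 1, grl-14 was at 1.58 CPM against 0.809 to 0.961, and cut-3 also at 1.58 against 0.14 to 0.568. In 40Q, sqst-3 was at 0.484 CPM in replicate 1 against 0.183 to 0.273, and E02C12.8 at 6.55 in replicate 6 against 2.31 to 3.84. Double mutant replicate 5 was high for nekl-1 (0.878 CPM against 0.649 to 0.729), F15E6.3 (35.9 against 21.1 to 26) and F35E12.4 (2.57 against 1.44 to 1.86). Low libraries were found for math-18 (double mutant replicate 3, 2.43 CPM against 3.05 to 3.32) and srp-3 (double mutant replicate 6, 0.774 against 1.19 to 1.33). In nhr-1(vlt16) replicate 5, ttr-31 was at 11.8 CPM against 13.7 to 14.8, nhr-1 at 11.4 against 14.8 to 16.4 and T24D5.6 at 2.09 against 3.27 to 3.7. In nhr-1(vlt16) replicate 3, snpc-3.3 was at 4.94 CPM against 6.05 to 6.5. For col-165, 40Q replicate 1 was at 0.044 CPM against 0 in the others, and double mutant replicate 3 at 1.14 against 0 to 0.372.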

How the results depend on the processing

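The count of called genes moved most with the fold threshold. It was 7114 without one (3522 positive and 3592 negative, so that neither direction was then more frequent by much) and 3009 at 1.5-fold (1866 and 1143). It was 1357 with RLE size factors, 1315 with library totals alone (754 positive and 561 negative), 1328 with DESeq2 (1319 of them shared and in the same direction), 1700 of 25728 genes without a filter, 1001 of 13068 with a filter of 1 CPM and 1292 with libraries thinned to the smallest. The scalings shifted the median interaction by -0.0387 (library totals alone) or less. Departure on the linear CPM scale was found for 1286 of the 1359 genes, and 2 turned sign. Leaving out single libraries gave 1265 to 1449 called genes, 780 to 908 positive and 452 to 561 negative. With at least 5 of 6 libraries apart in place of all, the called genes with 40Q highest were 119, with 40Q lowest 77, with nhr-1(vlt16) highest 13 and lowest 36, and with double mutants highest 35. The interaction of unc-1, which was not called, was -0.015 in thinned libraries and -0.041 without unc-1(vlt10) replicate 2, and -0.041 to 0.204 over all leave-one-out fits. The cause was not tested.

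Of 36 pairs of same-numbered libraries, 3 correlated above 0.1 (median -0.016) and 4 correlated best with their own number. Weak correlations cannot tell whether cultures or preparations were matched by number, and the labels do not say. With a replicate block, 1345 genes were called (831 positive and 514 negative), and 2 of the 81 named genes, cut-3 and nspe-4, lost their calls. Depth limits the lowest genes, of which 356 called ones are not tested with the filter of 1 CPM.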

Other observations

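The largest negative departures among genes of at least moderate level had unc-1(vlt10) highest. For Y6E2A.4, which overlaps Y6E2A.5 on the same strand, the levels were 0.631 to 1.65 CPM in 40Q (median 1.24), 9.18 to 15.7 in unc-1(vlt10) (median 11.95), 0.886 to 2.34 in nhr-1(vlt16) (median 1.16) and 0.761 to 1.66 in double mutants (median 1.39), with an interaction of -3.44 (standard error 0.317). For F35E12.4, annotated as a pseudogene, they were 1.42 to 4.37 CPM in 40Q (median 2.34), 12.7 to 19.7 in unc-1(vlt10) (median 14.1), 0.864 to 3.19 in nhr-1(vlt16) (median 1.74) and 1.44 to 2.57 in double mutants (median 1.705), with -2.64. In both, the 18 libraries outside unc-1(vlt10) overlapped across genotypes. For C08E8.4, the levels were 2.37 to 3.91 CPM in 40Q (median 3.001), 10.7 to 13.4 in unc-1(vlt10) (median 11.97), 2.86 to 4.55 in nhr-1(vlt16) (median 3.58) and 2.06 to 4.12 in double mutants (median 2.59), with -2.29, and for E02C12.8 the interaction was -2.27. The gene F15E6.3, which overlaps F15E6.9 on the other strand, had 8.68 to 17.1 CPM in 40Q (median 14.7), 47.8 to 72.7 in unc-1(vlt10) (median 62.5), 19.8 to 32.9 in nhr-1(vlt16) (median 27.6) and 21.1 to 35.9 in double mutants (median 23.4), so that 40Q lay lowest and unc-1(vlt10) highest, with the others between, and its interaction was -2.21. The gene T24D5.6 overlaps R09A8.9 on the same strand. In T24D5.6, 40Q lay below every mutant library, with 0.686 to 1.52 CPM in 40Q (median 1.12), 1.84 to 3.87 in unc-1(vlt10) (median 3.29), 2.09 to 3.703 in nhr-1(vlt16) (median 3.48) and 1.92 to 3.87 in double mutants (median 2.47) and an interaction of -1.82.

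Transthyretin-like genes, a secreted family expanded in nematodes, were called in 3 of 50 (6%, against 8.98% of all genes). The gene ttr-31 was positive (1.17) and ttr-44 and ttr-23 were negative (-1.26 and -1.33), with 5 called without nhr-1(vlt16) replicate 6. Of 32 pud and nematode-specific peptide genes, 8 were positive (25%, against 5.56% of all genes) and 1 negative (3.12%, against 3.42%). The median was 0.64, and 5 were called in all without double mutant replicate 6. Of 69 lysosomal protease, V-ATPase and autophagy genes, 3 were called (4.35%, against 8.98% of all genes). Of these, sqst-2 (1.39) and ctsa-1 (1.28) were positive and sqst-3 (-1.22) negative. The count was 5 without any of 40Q replicates 1 and 2, nhr-1(vlt16) replicate 6 and double mutant replicates 4 and 6. The call of sqst-3 was lost in 11 of the 24 leave-one-out fits, those without 40Q replicates 4, 5 and 6, unc-1(vlt10) replicates 1 and 6, nhr-1(vlt16) replicates 1, 3 and 4 and double mutant replicates 2, 3 and 5.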
